A study of Sus scrofa with 8 samples.

Results

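Solute carriers, the SLC genes, encode the membrane proteins that carry amino acids, sugars, ions, metals, vitamins and nucleotide sugars across the cell surface and into organelles. They were followed here in the testes of Large White boars (the F0 generation of a feeding experiment) that received either a control diet or the same kind of diet supplemented with methionine, choline, betaine, folate and the vitamins B6 and B12, from 1 to 10 months of age. RNA from the testis of each boar was hybridized to a porcine Agilent array with a single dye. Boars m_9499, m_9527, m_9597 and m_9599 had the supplemented diet, and boars m_9502, m_9528, m_9598 and m_9600 the control diet. The litter of 4 brothers (those numbered from m_9597 to m_9600) shared slide 1. The remaining 4 boars, from 2 other litters whose division is not given in the sources used here, shared slide 2. Slide and the litter of brothers therefore cannot be told apart, whereas each slide carried both diets. Supplemented boars sat in places 1 and 3 of a slide and control boars in places 2 and 4, and the effects of diet and place cannot be told apart.

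A probe was a member if the pig RefSeq symbol for its accession, or the name given to it in the list of differential probes that the study drew up, began with SLC and a digit. The rule leaves out 3 probes, of SLC40A1 and SLC11A1. This gave 71 probes of 55 genes in 30 families, out of 43603 probes on the array. RefSeq named 62 of them, and 11 were in the study's list, which was compiled from these same boars for differing between the diets. Those 11 were thus picked for their difference on these samples, and what they show is no independent evidence. SLC9A2 A_72_P088396 was named by both routes. Probe A_72_P344173 carries another name in the study's list and is called SLC35A4 here, after its RefSeq accession. One member, SLC9A3R1, encodes a scaffold protein that binds transporters and is no transporter itself.

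Solute carriers work either as exchangers, which swap one solute for another, or as cotransporters, which let a solute ride along an ion gradient, or as facilitators, which let it run down its own gradient. In the testis the seminiferous epithelium depends on them, because the barrier formed by Sertoli cells closes the inner compartment to blood. Sertoli cells take up glucose and hand lactate to the germ cells through monocarboxylate carriers. Of the supplemented nutrients, choline, betaine, methionine and folate all need carriers to enter cells. The SLC44 family is called choline transporter-like after this function.

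The probes of the 3 genes with the largest log2 differences among the 8 solute carriers that passed P under 0.05 are shown first, since the values below rest on the transcript these bases bind. Each is 60 bases long and printed 5′ to 3′ in lower case, with the bases given in the study's list. The G and C content was 35%, 41.7% and 38.3%, in the order printed.
SLC44A5 A_72_P090136: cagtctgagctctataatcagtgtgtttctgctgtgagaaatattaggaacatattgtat
SLC45A2 A_72_P058151: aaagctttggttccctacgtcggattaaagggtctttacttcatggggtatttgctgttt
SLC35D1 A_72_P172981: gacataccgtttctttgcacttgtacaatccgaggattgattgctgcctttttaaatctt
All of these names come from the study's list, since their array identifiers are not RefSeq accessions of the gene table used. Read in the 3 forward frames, the probe of SLC44A5 had 1 frame without a stop codon, and those of SLC45A2 and SLC35D1 had 2 each. Where in the transcript the bases lie was not determined here.

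Testis marker genes were found in these samples. Probes of the spermatid genes PRM1, PRM2 and ACR, of the Leydig cell genes INSL3 and CYP17A1 and of AMH from Sertoli cells were all present. A probe counted as present where 50% or more of its spots, on 2 or more of a diet's 4 arrays, exceeded a signal of 25 and carried the scanner's flag for well above background. In whole testis, fewer cells of a type and less RNA per cell cannot be told apart. The share of all spots well above background was 76.3% to 79.6% on the supplemented arrays and 77.3% to 86.5% on the control arrays, and the median ratio of a spot's signal to its local background lay between 4.94 and 7.57. Precision is limited by the number of arrays.

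Of the 71 solute carrier probes, 66 (93.0%) from 52 genes were present, against 84.8% of all probes. The 5 that were not present were well above background on 0 of the 8 arrays. Among them were the probe of SLC12A1, the salt cotransporter of the kidney, that of SLC26A3, a chloride and bicarbonate exchanger, and 1 of a pair of probes for each of SLC7A7 and SLC5A11. On all 8 arrays, 57 probes were well above background, and 9 present ones on fewer. No spot of a member was saturated.

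The first question was whether the diet altered transcripts of these carriers. Levels are log2 signals after quantile normalization, and a difference is always supplemented minus control on that scale. With limma, 8 of the 66 present probes had an unadjusted P under 0.05, against 1.86% of all present probes. The supplemented diet had the higher signal in 4 and the lower in 4, where the array gave 0.938% and 0.925%. With the background-subtracted processed intensity the count was 7, against 2.76% of the array, and the split became 2 higher and 5 lower. However, 7 of the 8, all but SLC22A2, were in the study's list. Among the 55 present probes outside that list the count was 1, against 1.19% of the array's probes outside it. None of the 66 had an adjusted P under 0.05 after the Benjamini-Hochberg correction over 36982 probes, where the smallest in limma was 0.84, and the background was 0.0%. All 8 have an adjusted P of 0.84 in limma. For single probes, an exact permutation test over the boars (two-sided, 70 arrangements) was run beside it on each of the 66, and 7 of them reached P = 0.0286, the smallest value that 4 against 4 boars allow. This P is the same as no overlap between the diets, which held for 1.13% of the array, and all 7 are in the study's list, with 0 of the 55 outside it.

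**Figure D1:**
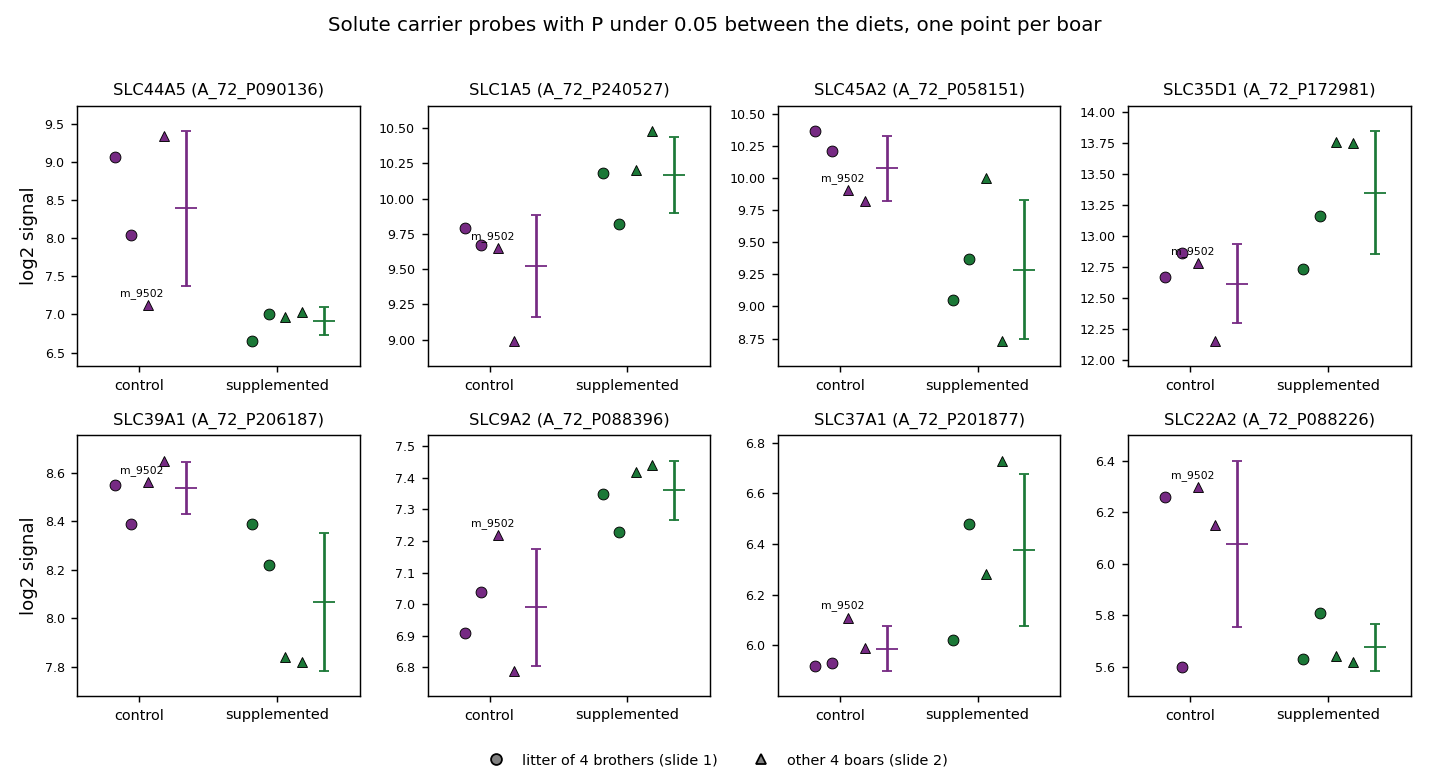
Normalized log2 signal of each boar (points) for the 8 solute carrier probes with an unadjusted P under 0.05, control boars at the left and supplemented boars at the right of each panel, circles for the 4 brothers and triangles for the other 4 boars, with bars for the mean and SD of a diet. In SLC44A5 the supplemented boars lie between 6.65 and 7.03, and of the control boars m_9502, at 7.12, is the nearest to them.

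SLC44A5, a member of the choline transporter-like family, had the largest difference of all members. Its log2 signal was 6.65 in m_9597, 7.01 in m_9599, 6.97 in m_9499 and 7.03 in m_9527 on the supplemented diet, and 9.07 in m_9598, 8.05 in m_9600, 7.12 in m_9502 and 9.34 in m_9528 on the control diet. The supplemented boars lay close together, the control boars were spread widely, and the diets did not overlap, although m_9502 was separated from the supplemented boars by little. The means were 6.91 ± 0.18 and 8.39 ± 1.02 (SD, 4 boars each), a difference of -1.48 (SE 0.43) or 2.78-fold lower on the supplemented diet (limma P = 0.00657, exact permutation P = 0.0286). The probe was lower on the supplemented diet both among the brothers, by -1.73, and among the other 4 boars, by -1.23. It is a member only through the study's list, in which 11 of 11 probes shared their sign between these sets of boars. Its difference and shared sign are thus no independent evidence. SLC44A5 was the only member with a difference of at least 2-fold.

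Markers of duct epithelium were also lower on the supplemented diet, by little apart from EPCAM. Duct epithelium is the lining of the rete testis and epididymal ducts, which a testis sample can include. Of the 6 marker genes, EPCAM and CDH1 had named probes, 5 in all, each present and each lower, with a median difference of -0.95 and no P under 0.05. The 3 EPCAM probes differed by -1.15, -1.19 and -0.95, so the median is the value of an EPCAM probe. Those of CDH1 differed by -0.18 (SE 0.38) and -0.15 (SE 0.14), the latter a dim probe with means of 5.08 and 5.23. The summed level of the list ranged from 10.94 to 13.71 on the supplemented diet and from 12.14 to 14.29 on the control diet. As the median over the list of each boar's deviation from the probe mean, the values were -1.84, 0.86, -0.59 and -0.27 in m_9597, m_9599, m_9499 and m_9527, and 1.44, 0.77, -0.76 and 0.69 in m_9598, m_9600, m_9502 and m_9528. Boar m_9502 was thus low in both SLC44A5 and the duct list, whereas m_9599 was low in SLC44A5 and high in the list. The part of such cells in the SLC44A5 result was not tested. All 11 Leydig cell probes, of 6 genes, were lower as well, with a median of -0.35 and none with P under 0.05. By the same deviation, m_9597, m_9599, m_9499 and m_9527 had -0.20, -0.32, 1.12 and -0.92 on the supplemented diet. The control boars m_9598, m_9600, m_9502 and m_9528 had 0.37, 0.08, -0.16 and 0.41. The supplemented m_9499 was thus the highest of all boars. The part of Leydig cells was not tested either.

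No other choline or vitamin carrier of this class had P under 0.05. SLC44A4, a relative of SLC44A5 that is known to carry thiamine pyrophosphate, has 4 probes, and their diet differences were 0.24, 0.25, 0.13 and -0.14, none with P under 0.05. For the probe A_72_P313003 the supplemented boars stood at 11.10 (m_9597), 10.90 (m_9599), 12.32 (m_9499) and 11.75 (m_9527), and the control boars at 11.18 (m_9598), 11.61 (m_9600), 11.42 (m_9502) and 10.89 (m_9528). The supplemented m_9499 and m_9527 lay above all control boars and the supplemented brothers within the control range, so the diets overlapped, and the brothers and the remaining boars went opposite ways. Within the brothers the differences of the 4 probes were -0.39, -0.49, -0.53 and -0.48, and within the other 4 boars 0.88, 0.99, 0.80 and 0.20, in the order A_72_P313003, A_72_P026961, A_72_P230542 and A_72_P255967. The test of the difference between these, a diet by slide interaction in limma, had an unadjusted P under 0.05 for the first 3 probes and an adjusted P of 1.0 for all 4. Since the 4 probes bind transcripts of 1 gene, they are not independent of each other.

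SLC52A2, a riboflavin transporter, has 3 present probes. The brightest signal of A_72_P119761 was in a control boar. It read 13.28, 13.40, 13.45 and 12.76 in m_9597, m_9599, m_9499 and m_9527, and 12.05, 11.72, 13.74 and 11.87 in m_9598, m_9600, m_9502 and m_9528. The remaining control boars all lay below the supplemented ones and m_9502 above them, which left a difference of 0.88 (SE 0.41, limma P = 0.0598, exact permutation P = 0.143). The other SLC52A2 probes differed by 0.23 and -0.12. SLC23A2, a transporter of vitamin C, differed by 0.29 and SLC46A2, of the family that includes the folate carrier of the gut, by -0.46, neither with P under 0.05. The class of choline and vitamin carriers, 10 present probes of 5 genes, had 6 higher and 4 lower, and a median of 0.18. The 1 with P under 0.05, SLC44A5, is in the study's list, and the array gave 1.86%. All present probes of the array had a median of 0.00.

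**Figure D2:**
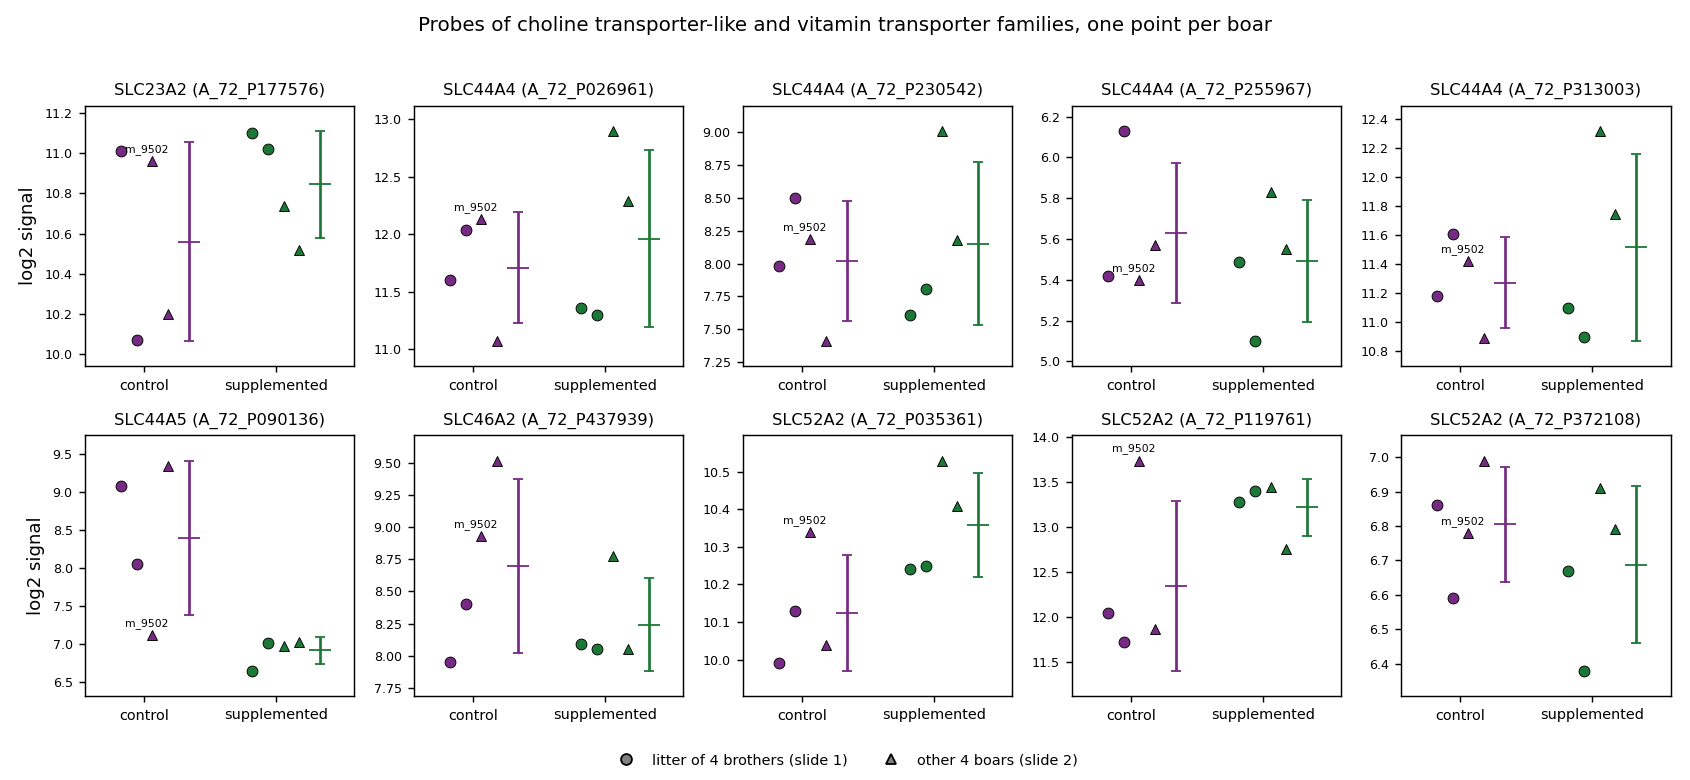
Normalized log2 signal of each boar (points) for the 10 probes of choline transporter-like and vitamin carriers, control at the left and supplemented at the right of each panel, circles for the 4 brothers and triangles for the other 4 boars, with bars for the mean and SD. Supplemented triangles lie above supplemented circles in all SLC44A4 panels, and the control boar m_9502 stands apart at 13.74 in SLC52A2 A_72_P119761.

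Genes that handle choline inside the cell gave few values. Of 16 such genes 2 had a named probe, CHAT, which makes acetylcholine, with a difference of 0.20, and PEMT, which makes phosphatidylcholine by methylation, with -0.26, neither with P under 0.05. SLC22A2, an organic cation transporter that also accepts choline, was the 1 member outside the study's list with P under 0.05. Its log2 signal was 5.63, 5.81, 5.64 and 5.62 in m_9597, m_9599, m_9499 and m_9527, and 6.26, 5.60, 6.30 and 6.15 in m_9598, m_9600, m_9502 and m_9528. The control boar m_9600 lay below all supplemented boars, so the diets overlapped, and the difference was -0.40 (SE 0.18, limma P = 0.0495, exact permutation P = 0.143). That limma P was lost in 14 of the 17 alternative settings, and the difference was -0.86 with the processed intensity, where P stayed under 0.05, and -0.22 under normexp, where it did not.

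Among the amino acid and peptide carriers, SLC1A5, a sodium-dependent exchanger of glutamine and other neutral amino acids, had the only P under 0.05. All present probes gave 1.86%. SLC1A5 is a member only through the study's list, so its difference is no independent evidence. The signal of its probe A_72_P240527 was 10.18, 9.82, 10.20 and 10.48 on the supplemented diet (m_9597, m_9599, m_9499, m_9527) and 9.79, 9.67, 9.65 and 8.99 on the control diet (m_9598, m_9600, m_9502, m_9528). The diets did not overlap, with 9.82 in m_9599 just above 9.79 in its brother m_9598. The difference was 0.64 (SE 0.22), 1.56-fold (limma P = 0.0142, exact permutation P = 0.0286). It was 0.27 among the brothers and 1.02 among the other 4 boars.

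SLC7A2, a cationic amino acid transporter for arginine and lysine, was higher by 0.79 (SE 0.38, limma P = 0.0659, exact permutation P = 0.171). The diets overlapped, with 9.42 to 11.07 on the supplemented and 8.82 to 10.06 on the control diet, where m_9502 was the highest. Without m_9527, the highest of the supplemented boars, the difference was 0.46. Its relative SLC7A1 had 1 probe at -0.32 and 1 at 0.13. The present probe of SLC7A7, which exports cationic amino acids in exchange for neutral ones, differed by -0.35, with the control boar m_9502 the highest at 9.75. SLC7A9 and SLC3A1, the light and heavy chain of the cystine transporter, differed by 0.14 and by -0.16 and 0.03. The peptide transporters SLC15A1 and SLC15A2 differed by -0.07 and -0.08. SLC15A2 was well above background on 0 supplemented and 2 control arrays, and gave no usable fold. In the whole class, 10 present probes, 5 were higher and 5 lower, with a median of -0.02.

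The nucleotide sugar carriers held another of the larger differences. SLC35D1 brings UDP-glucuronic acid and UDP-N-acetylgalactosamine into the endoplasmic reticulum, where they serve chondroitin sulphate synthesis. Its signal was 12.73 and 13.16 in the supplemented brothers m_9597 and m_9599 and 13.76 and 13.75 in m_9499 and m_9527, against 12.67 and 12.86 in the control brothers m_9598 and m_9600 and 12.78 and 12.15 in m_9502 and m_9528. The supplemented boars of slide 2 lay above all others, whereas the brothers of the diets overlapped. The difference was 0.73 (SE 0.26), 1.66-fold (limma P = 0.0202, exact permutation P = 0.0857), made up of 0.18 among the brothers and 1.29 among the other 4 boars. The interaction of these in limma passed the unadjusted threshold, with an adjusted P of 1.0.

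Its relative SLC35D2, which moves UDP-N-acetylglucosamine and related sugars into the Golgi, had tightly grouped supplemented boars, from 9.15 to 9.25, below the control boars at 9.28 to 9.63. The diets did not overlap, but with a difference of -0.26 (SE 0.14) the limma P = 0.0816 missed the threshold that the exact permutation P = 0.0286 passed. SLC35A4, a family member without an established substrate, had 1 probe whose boars did not overlap (0.19, SE 0.12, limma P = 0.167, exact permutation P = 0.0286) and 1 with the opposite sign at -0.11. SLC35A3, a UDP-N-acetylglucosamine carrier of the Golgi, was lower by -0.65 (SE 0.44, limma P = 0.173, exact permutation P = 0.229), with 10.35 in m_9598 and 10.41 in m_9528 above the remaining 6 boars. The nucleoside transporters SLC28A1 and SLC29A3 differed by 0.03 and 0.09. Of the 7 present probes of this class 4 were higher and 3 lower, with a median of 0.03.

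Of the families that carry sugars, SLC45A2, best known from the melanosomes of pigment cells, had the second largest difference with P under 0.05. It read 9.05, 9.37, 10 and 8.73 on the supplemented diet (m_9597, m_9599, m_9499, m_9527) and 10.37, 10.21, 9.91 and 9.82 on the control diet (m_9598, m_9600, m_9502, m_9528). The supplemented boar m_9499 lay above the control boars m_9502 and m_9528, and the other supplemented boars lay below all control boars. The difference was -0.79 (SE 0.27), 1.73-fold lower (limma P = 0.0147, exact permutation P = 0.0857). SLC37A1, a glucose-6-phosphate antiporter of the endoplasmic reticulum, read 6.02 to 6.73 on the supplemented and 5.92 to 6.11 on the control diet, and the supplemented m_9597 at 6.02 was the 1 boar of its diet within the control range. Its difference was 0.39 (SE 0.17, limma P = 0.0484, exact permutation P = 0.0571), with 0.63 for the processed intensity and 0.25 under normexp, both without P under 0.05.

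The sodium-driven SLC5 family was mixed. SLC5A1, the glucose cotransporter of the gut, differed by -0.28, SLC5A4 by -0.27, SLC5A10, a mannose and fructose transporter, by 0.09 and 0.52 in its pair of probes, SLC5A11, a myo-inositol transporter, by 0.09 and SLC5A5, which carries iodide although it is placed here with its family, by 0.41. None had P under 0.05. SLC2A2, the facilitative glucose carrier of liver and islets, was well above background on 0 supplemented and 2 control arrays. Over the class, 5 of 9 present probes were higher and 4 lower, with a median of 0.09.

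**Figure D3:**
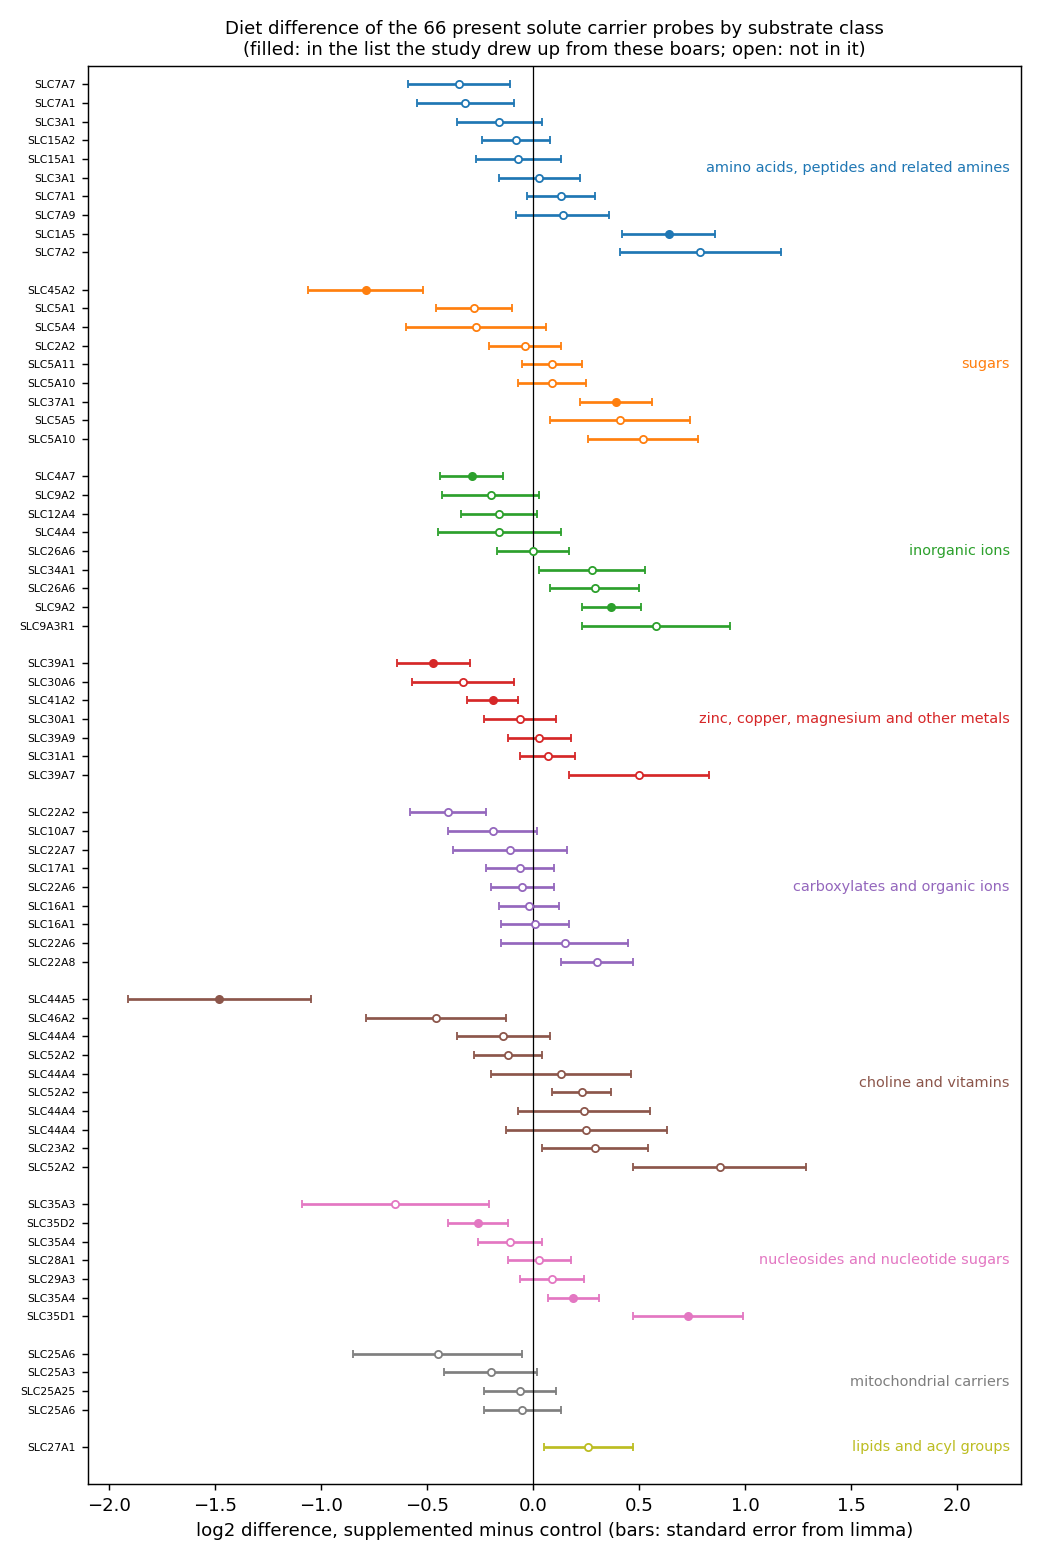
Log2 difference between the diets (supplemented minus control, points) with its limma standard error (bars) for the 66 present solute carrier probes, grouped by substrate class and ordered within it, filled for probes of the study's list. The probes lie on both sides of 0, with 32 higher and 34 lower, and SLC44A5 at -1.48 is the farthest from it.

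Zinc carriers gave 1 probe with P under 0.05, against 1.86% of all present probes, and that probe is in the study's list. SLC39A1, which takes zinc up at the cell surface, read 8.39, 8.22, 7.84 and 7.82 in m_9597, m_9599, m_9499 and m_9527, and 8.55, 8.39, 8.56 and 8.65 in m_9598, m_9600, m_9502 and m_9528. The diets met at 8.39, where the highest supplemented and the lowest control boar, which are brothers, differed by less than the rounding. The difference was -0.47 (SE 0.17, limma P = 0.0203, exact permutation P = 0.0286), or -0.16 among the brothers and -0.77 among the other 4 boars. SLC39A7, which releases zinc from the endoplasmic reticulum, differed by 0.50, and the exporters SLC30A1 and SLC30A6 by -0.06 and -0.33, none with P under 0.05.

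SLC41A2, a magnesium transporter, lay from 5.13 to 5.25 on the supplemented and from 5.36 to 5.43 on the control diet without overlap. It was, however, well above background on 0 supplemented and 3 control arrays. Its difference can be given only as at least 1.1-fold lower, set against the lowest signal that counted as above background on the supplemented arrays, with an adjusted P of 0.84 in limma. The share of all spots above background also differed between the diets, with a median of 76.8% on the supplemented and 82.7% on the control arrays, and its part in this result was not tested. SLC31A1, the copper importer, differed by 0.07 and SLC39A9 by 0.03. The metal carriers had 3 higher and 4 lower probes and a median of -0.06.

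The ion carriers included 1 probe with P under 0.05, against 1.86% of all present probes, and it too is in the study's list. SLC9A2 A_72_P088396, a sodium and proton exchanger, read 7.35, 7.23, 7.42 and 7.44 on the supplemented diet (m_9597, m_9599, m_9499, m_9527) and 6.91, 7.04, 7.22 and 6.79 on the control diet (m_9598, m_9600, m_9502, m_9528). The diets did not overlap, though 7.23 in m_9599 was next to 7.22 in the control m_9502. The difference was 0.37 (SE 0.14, limma P = 0.0284, exact permutation P = 0.0286). The second SLC9A2 probe had the opposite sign, -0.20 (SE 0.23, limma P = 0.423, exact permutation P = 0.457), so the gene's direction was not settled by its probes.

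SLC4A7, a sodium bicarbonate cotransporter, was lower by -0.29 (SE 0.15, limma P = 0.0762, exact permutation P = 0.0857) and its relative SLC4A4 by -0.16. SLC26A6, an anion exchanger, differed by 0.29 and 0.00 in its pair of probes, SLC12A4, a potassium chloride cotransporter, by -0.16, and SLC34A1, a phosphate cotransporter, by 0.28. The scaffold SLC9A3R1 differed by 0.58 (SE 0.35), also without P under 0.05. Of the 9 present probes 5 were higher and 4 lower, with a median of 0.00.

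The remaining classes held no further P under 0.05. The lactate and pyruvate carrier SLC16A1, a monocarboxylate carrier, differed by -0.02 and 0.01, each below its SE of 0.14 and 0.16. The organic anion transporters SLC22A6, SLC22A7 and SLC22A8 differed by -0.05 and 0.15, by -0.11 and by 0.30, SLC17A1 by -0.06 and the bile acid family member SLC10A7 by -0.19. Of these, SLC22A8 was well above background on only 2 supplemented and 2 control arrays. SLC17A1 was so on 1 supplemented and 4 control arrays, and the SLC22A6 probe with -0.05 on 3 and 4. With SLC22A2, 3 of 9 probes of this class were higher and 6 lower, with a median of -0.05. All 4 mitochondrial carrier probes were lower, with a median of -0.13. They were the adenine nucleotide carrier SLC25A6 (-0.45 and -0.05), the phosphate carrier SLC25A3 (-0.20) and the ATP-Mg carrier SLC25A25 (-0.06). The fatty acid transport protein SLC27A1 differed by 0.26.

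Across the 66 present probes the median difference was -0.03, and its size was 0.20 in the median (1.15-fold), against 0.17 (1.12-fold) over all present probes. Outside the study's list the median size was 0.16 (1.12-fold), with 27 probes higher and 28 lower. A difference of at least 1.5-fold was found in 7 of 66 probes (10.6%), against 5.16% of the array, but in 3 of the 55 outside the list (5.45%). The median SD within a diet was 0.29, and 0.30 over the array. In 7 probes all boars of a diet lay above all of the other, 3 upwards and 4 downwards, against 1.13% of the array. All 7 belong to the study's list, which makes the count no result about the family. Of the 11 genes with several present probes, 3 had probes of 1 sign and 8 had differing signs.

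Other membrane transport genes were counted for comparison. Of ABC transporters (CFTR included), aquaporins, ion-pumping ATPases and SLCO carriers, 27 probes of 21 genes were named and 25 were present. Of these, 10 were higher and 15 lower, with a median of -0.17, against 0.00 over all present probes. The 1 with P under 0.05, against 1.86% of the array, was ABCA13, a lipid transporter family member, at -0.33 (SE 0.14, adjusted P 0.84 in limma). The present CFTR probe was higher by 0.37 (SE 0.17), with a limma P of 0.05 that did not pass.

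Because each slide held both diets, the differences could be compared between the 4 brothers and the other 4 boars. The sign was shared in 43 of the 66 probes (65.2%) and opposite in 23, against 61.1% with a shared sign over the array. The share was 11 of 11 in the study's list, which used all these boars, and 32 of 55 (58.2%) outside it. In limma on the brothers alone, 7 members had an unadjusted P under 0.05, 3 higher and 4 lower, against 6.44% of the array, and 34 did not overlap between the diets, against 37.1%. In the other 4 boars alone, 3 members had P under 0.05, against 0.971%, and 21 did not overlap, against 22.6%. In limma, the interaction had P under 0.05 in 4 members (6.06%), 3 SLC44A4 probes and SLC35D1, against 2.0% of the array (adjusted P 1.0 in each). None had an adjusted P under 0.05. The slides themselves differed with P under 0.05 in 4 members (6.06%), against 8.11% of the array, none after adjustment, where the smallest limma value was 0.554. These were SLC5A5, SLC22A6 A_72_P087891 and SLC46A2, which were lower in the brothers by -0.81, -0.72 and -0.70, and SLC5A4, which was higher in them by 0.79.

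**Figure D4:**
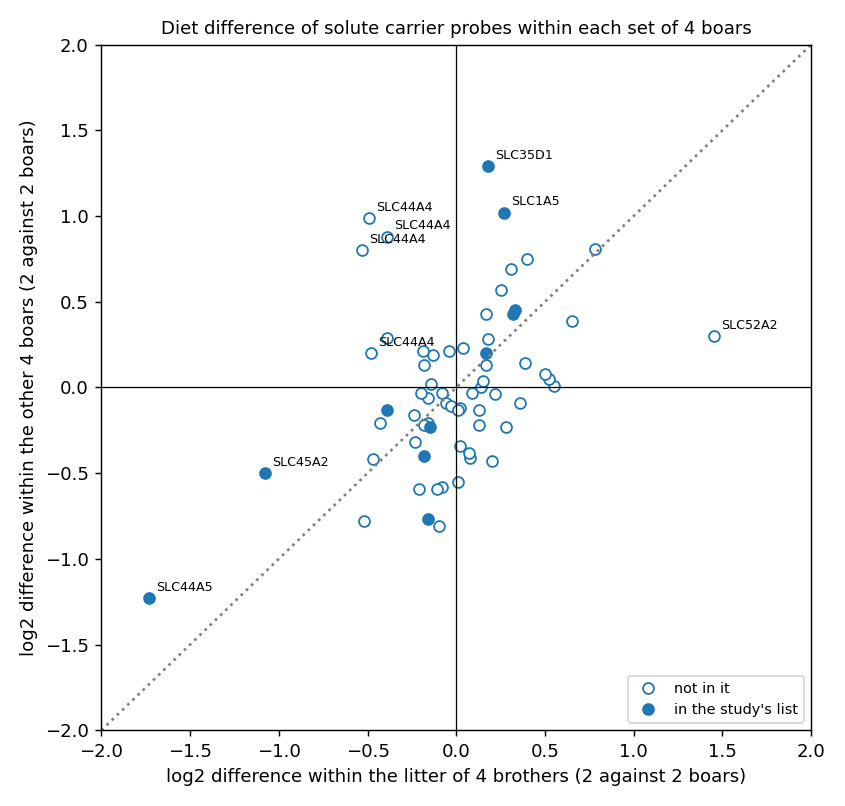
Log2 difference between the diets (supplemented minus control) within the litter of 4 brothers (horizontal axis) and within the other 4 boars (vertical axis), 1 point per present solute carrier probe, filled for probes of the study's list, with a dotted line where both are equal. SLC44A5 lies low on both axes at -1.73 and -1.23, and the 4 SLC44A4 probes lie to the left of 0 and above it.

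The number of solute carriers that passed the unadjusted threshold changed most when the control boar m_9502 was left out. Its signal was nearer to the supplemented mean than to the mean of the other control boars in 50 of the 66 probes (75.8%), and in 77.5% of all present probes. The same count was 20, 29 and 15 for the control boars m_9598, m_9600 and m_9528. Without m_9502, 20 probes (30.3%) had P under 0.05, 12 higher and 8 lower, against 16.6% of the array, and 15 did not overlap, against 15.6%. Of the 20, 12 were among the 55 present probes outside the study's list, where the array gave 16.1%. The smallest adjusted P in limma was then 0.279, so none of the 66 passed the corrected test. Of the 8 probes named above 7 kept P under 0.05, the exception being SLC22A2 (-0.33, adjusted P 0.375 in limma).

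The riboflavin carrier SLC52A2 A_72_P119761 then differed by 1.34 (SE 0.20). The control boar left out is the one whose signal lay above those of the supplemented boars. SLC44A5 differed by -1.90 (SE 0.29), SLC7A2 by 1.05 and SLC39A7 by 0.80. SLC9A3R1 differed by 0.82 and SLC35A3 by -1.04. In each of these genes m_9502 was the control boar farthest towards the supplemented side, so its omission had to widen the difference. Leaving out m_9528 instead brought SLC9A3R1 to 0.25 and SLC35A3 to -0.38, and SLC35A3 also stood at -0.40 without m_9598 and -0.43 without m_9527. Without m_9502, all of these had an adjusted P of 0.279 to 0.281 in limma. Nothing in the labels sets m_9502 apart from the other control boars, and it was kept in all values except where its omission is named. On its array 77.3% of spots were well above background, against 82.6% to 86.5% on the other control arrays. The supplemented arrays had 76.3% to 79.6%. The part of this share in the values of m_9502 was not tested.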

How the data were processed

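The authors deposited the scanner output of 8 one-colour arrays, which holds the intensity of each spot as Feature Extraction gave it, and a table of log2 values that they had quantile-normalized. Here the median spot intensity, the column the study used as raw value, was put on the log2 scale with no background subtracted. Control spots were dropped, the arrays were quantile-normalized and spots of a probe were averaged. Without background subtraction, differences of dim probes are understated. The deposited log2 table served as an alternative. It holds 35258 probes, exactly those that pass the presence rule given above on 3 or more of a diet's 4 arrays, and differed from the values computed here by 0.0297 in the median.

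The diets were compared with limma 3.58.1 in R 4.3.3 (lmFit and eBayes, two-sided, no block), fitted over 36982 present probes with Benjamini-Hochberg adjustment. Slide and interaction were further terms in fits of their own. The code was tested on simulated data. Boars are the replicates. Of 3239 probes with a RefSeq accession, 2628 matched the RefSeq gene table, and with the study's list 3064 probes were named. Different probes of a gene were kept apart, and levels were not set against each other between probes. Classes follow the SLC family number.

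Members, classes and marker lists were chosen with earlier results of these data known. The rule for probes to be named took those in the study's list, the 10 with the smallest P, the 5 largest differences each way, carriers of supplemented nutrients, carriers known from testis and sperm, and the other probes of the genes named by the first 3 of these. Those that the results turn on were given boar by boar, and the rest by their difference. Carriers of these nutrients without a named probe were not analysed here, and neither were the sperm samples. One member that was not present is not reported here by name. No named probe was found for the markers of spermatocytes and red blood cells. The marker lists of Sertoli cells, spermatogonia, spermatids, peritubular cells and endothelium had probes in both directions and that of macrophages only higher ones, none with P under 0.05.

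The alternatives were the background-subtracted processed intensity and the median intensity, each brought to a common 75th percentile between arrays, normexp with an offset of 50, no filter on dim probes, probes above background on all 8 arrays, slide as a block, the brothers or the other 4 boars alone, the deposited log2 table and the omission of each boar in turn. Python 3.11.15 and matplotlib 3.10.9 made the figures.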

Additional observations from a re-analysis of the deposited data

Results flagged for a closer look

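In 62 sets of 4 boars on 1 diet, taken from the named probes, a single boar was looked for whose gap to the nearest of the others was large against the whole range. Chance gives about 1 in 20 such sets, or 3.1 here, and 4 were found. The control boar m_9502 stood at 13.74 for SLC52A2 A_72_P119761, where the other control boars had 11.72 to 12.05. It also stood at 9.95 for SLC26A6 A_72_P146936, against 9.05 to 9.12. The supplemented boar m_9599 stood at 5.81 for SLC22A2, against 5.62 to 5.64 in the others on its diet. The supplemented boar m_9499 stood at 8.78 for SLC46A2, against 8.05 to 8.09.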

How the results depend on the processing

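No solute carrier had an adjusted P under 0.05 in limma under any of the 17 alternatives. The number of probes with an unadjusted P under 0.05, 8 in all with 4 higher and 4 lower, was 3 (2 higher, 1 lower) in the other 4 boars alone and 7 (2 higher, 5 lower) with the processed intensity. With 1 boar left out it ranged from 4 to 20, with 1 to 12 higher and 2 to 8 lower. It was 20 without m_9502 (16.6% of the array), 5 without m_9499 (2.03%) and 4 without m_9527 (1.18%) or without m_9528 (0.917%). Of probes outside the study's list, 1 in the fit reported, the count was 0 under normexp, above background on all arrays, with the slide block, in the other 4 boars alone and with the deposited values, 4 in the brothers alone and 0 to 12 with 1 boar left out. Non-overlapping probes, 7 at first, numbered 2 with the processed (1.3% of the array) and 2 with the median intensity (0.725%) scaled to the 75th percentile, 34 in the brothers alone (37.1% of the array), 21 in the other 4 boars alone (22.6%) and 7 to 15 with 1 boar left out (15 without m_9502, where the array gave 15.6%).

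The median of all members ranged from -0.05 to 0.02 with 1 boar left out. That of the sugar carriers was -0.04 in the other 4 boars alone and -0.01 to 0.12 with 1 boar left out. The metal carriers had -0.17 (without m_9502) to 0.04. The choline and vitamin carriers had -0.30 in the brothers alone and -0.11 (without m_9499) to 0.24. The nucleotide sugar class had -0.15 with the processed intensity and -0.13 in the brothers alone.

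The sign turned in genes whose differences were small or went apart between the brothers and the other boars. SLC44A4 A_72_P313003 had -0.39 in the brothers alone and -0.02 to 0.45 with 1 boar left out, A_72_P026961 had -0.49 and -0.06 to 0.47, and A_72_P230542 had -0.53 and -0.15 to 0.31. SLC44A4 A_72_P255967 had 0.20 in the other 4 boars alone and -0.25 to 0.03. SLC16A1 A_72_P280129 had 0.00 with the processed intensity, 0.13 in the other 4 boars alone and -0.08 to 0.03, and A_72_P294944 had -0.01, -0.19 in the brothers alone and -0.05 to 0.10. SLC26A6 A_72_P016216 had -0.04 with the processed intensity, -0.13 in the other 4 boars alone and -0.05 to 0.11. The cause of these was not tested.

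Of the named probes with P under 0.05, SLC44A5 lost it only in the other 4 boars alone (-1.23, the cause was not tested), with -1.90 to -1.16 when 1 boar was left out. SLC45A2 lost it there too (-0.50), SLC1A5 in the brothers alone (0.27), SLC39A1 under 3 alternatives, SLC35D1 under 4, SLC9A2 under 9, SLC37A1 under 13 and SLC22A2 under 14. No paired analysis was possible because the labels give no numbers that pair boars across the diets. With the slide as a block, the call of SLC22A2 was lost and no other named call was lost. The limits are 4 boars a diet, 1 array each, and dim probes, whose differences are compressed.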
